A study of Homo sapiens with 12 samples.

Results

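Subtelomeric accessible sites, the summits of open chromatin within 1 Mb of a chromosome end, numbered 3870 of the 188019 lines in the deposited list. A line was a member when it lay on chromosomes 1 to 22, its interval was at most 10 kb long, and its summit fell in the first or last 1000000 bp of the GRCh38 chromosome. These 3870 summits stood in 2754 intervals and were 3.66% (95% exact binomial interval 3.55 to 3.78%) of the 105599 autosomal summits in intervals of that length. The other 101729 are called the rest. The choice used position and length only.

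Accessibility was measured by ATAC-seq, in which a transposase cuts and tags open DNA, in HT1080 cells, an established human fibrosarcoma line. Cells at 100000 per mL moved for 48 h in rat tail type I collagen at 0.3 (low), 1.0 (medium) or 1.7 mg/mL (high), with 4 libraries per concentration. All 12 cultures, the low-concentration ones included, also received 20 µM of the matrix metalloproteinase inhibitor GM6001. The list was pooled over the series and held no value per library, so nothing below compares concentrations, no value has a replicate, and the depth of each library is unknown. Intervals given with shares cover counting error only, and neighbouring sites are not independent samples.

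Human chromosomes end in telomere repeats, and the subtelomeres just inside them are patchworks of blocks that are shared, nearly identical, between different chromosomes. These blocks carry copies of small families such as WASH and DDX11L, olfactory receptor genes of the OR4F group, and, on the long arms of chromosomes 4 and 10, tandem arrays of the DUX4 gene. Farther in, ordinary gene-rich DNA begins, and some ends carry clusters of zinc finger genes. Fragments from near-identical copies cannot always be placed at a single copy, so values at such copies are uncertain.

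The promoters of 6 genes near the ends are shown to let accessible and other starts be read side by side. The genes are ZNF891, which shared one of the 10 most enriched member summits, and 5 that are the outermost protein-coding gene of their end. Each is the 250 bases before the start site, 5′ to 3′ on the gene's strand, from RefSeq GRCh38.p14, with CpG dinucleotides in capitals. CHAMP1, RABL2B, ZNF595 and ZNF891 had a summit within 1000 bp of the start, whereas TUBB8 and OR4F15 had none.
CHAMP1: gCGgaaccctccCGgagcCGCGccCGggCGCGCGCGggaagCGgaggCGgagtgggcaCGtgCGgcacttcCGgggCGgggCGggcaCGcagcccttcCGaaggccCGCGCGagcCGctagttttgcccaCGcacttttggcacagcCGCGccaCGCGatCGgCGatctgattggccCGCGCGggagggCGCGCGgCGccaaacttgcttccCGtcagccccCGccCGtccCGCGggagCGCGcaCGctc
RABL2B: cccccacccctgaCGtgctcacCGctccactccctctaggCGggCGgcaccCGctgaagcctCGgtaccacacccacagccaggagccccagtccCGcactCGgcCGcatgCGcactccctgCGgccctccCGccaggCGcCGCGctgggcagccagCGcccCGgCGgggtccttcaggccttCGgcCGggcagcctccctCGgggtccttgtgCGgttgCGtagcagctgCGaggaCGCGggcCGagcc
ZNF595: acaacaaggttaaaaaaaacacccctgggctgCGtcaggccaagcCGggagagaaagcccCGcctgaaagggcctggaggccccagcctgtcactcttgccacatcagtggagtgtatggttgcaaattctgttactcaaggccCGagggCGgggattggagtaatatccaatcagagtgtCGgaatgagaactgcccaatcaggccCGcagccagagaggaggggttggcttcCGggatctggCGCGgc
ZNF891: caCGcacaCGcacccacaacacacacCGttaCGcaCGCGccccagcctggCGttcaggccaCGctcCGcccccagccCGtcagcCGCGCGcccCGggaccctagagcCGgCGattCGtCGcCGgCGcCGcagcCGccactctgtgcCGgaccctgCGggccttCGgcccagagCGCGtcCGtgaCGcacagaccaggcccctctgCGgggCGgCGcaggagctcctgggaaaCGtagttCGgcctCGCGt
TUBB8: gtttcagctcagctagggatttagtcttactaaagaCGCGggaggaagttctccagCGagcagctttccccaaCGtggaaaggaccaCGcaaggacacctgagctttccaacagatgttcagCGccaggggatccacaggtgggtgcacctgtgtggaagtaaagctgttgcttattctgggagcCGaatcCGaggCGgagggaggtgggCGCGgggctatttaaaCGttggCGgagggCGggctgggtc
OR4F15: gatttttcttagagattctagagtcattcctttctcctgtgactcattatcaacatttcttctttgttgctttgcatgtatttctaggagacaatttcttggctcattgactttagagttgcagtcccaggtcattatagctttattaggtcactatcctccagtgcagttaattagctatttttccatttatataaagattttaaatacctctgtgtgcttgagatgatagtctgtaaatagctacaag

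CHAMP1, a chromosome alignment protein gene at 13q (chr13:114314253-114314502), held 44 CpG in these bases, and its summit had an enrichment of 17.3. Enrichment is the deposited ratio of fragments at the summit to the background that the peak caller used. RABL2B, a small GTPase gene at 22q (chr22:50783637-50783886), held 27 CpG and had an enrichment of 15.6. ZNF891, a zinc finger gene at 12q (chr12:133130275-133130524), held 36 CpG and had an enrichment of 18.5. ZNF595 at 4p (chr4:53071-53320) had an enrichment of 15.3 with only 10 CpG. TUBB8, a tubulin gene at 10p (chr10:49297-49546), held 14 CpG and no summit, so CpG number alone did not order these 6 genes. OR4F15, an olfactory receptor gene at 15q (chr15:101811952-101812201), held 0 CpG and no summit.

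The 836 promoters within 1 Mb of the ends were taken from 250 bases before to 50 after the start, on 21 of the 22 autosomes. Of these, 55.3% had a summit, against 50.9% of all promoters. The 462 with a summit had a median GC content of 71.7% and 33 CpG. The 374 without a summit had a median GC content of 58.7% and 9 CpG. The same contrast was present in the rest, at 65.0% and 25 CpG with a summit and 48.3% and 4 CpG without. The letters GGGCGG, searched on both strands, occurred in 57.3% of promoters near the ends and 44.7% of all promoters. The telomere repeat unit TTAGGG occurred in 7.06% near the ends and 8.99% of all promoters. These matches describe letters and not bound sites.

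Accessible sites were denser near the ends than inside the chromosomes. The 39 ends that held any line had 99.2 summits per Mb, against 35.9 per Mb in the rest, a ratio of 2.76. The size of this ratio depended on the 10 kb length limit, which fell unequally on the 2 sides. It left out 127 of 3997 lines near the ends, but cut all autosomal lines from 176682 to 105599. With intervals of any length counted, the ratio was 1.68. Within the length limit, density at 36 of the 39 ends was above that of the rest of the same chromosome. At 27 it was at least 2 times as high. These counts of ends were not repeated with intervals of any length. With the rest limited to 1 to 2 Mb from the ends, 24 of the 39 were above it. The 3 ends below the whole rest of their chromosome were 3p, 14q and 19q, with ratios of 0.326, 0.484 and 0.986. Protein-coding genes were also denser there, at 16.8 per Mb against 6.47 in the rest, a ratio of 2.60. The short-arm ends of chromosomes 13, 14, 15, 21 and 22 held 0 lines and 0 genes of the table used. These 5 ends were left out of the length near the ends, whereas the length of the rest kept any assembly gaps. The ratios of 2.76 and 2.60 therefore rest on unlike lengths, and the part of gaps in them was not tested.

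The ends differed widely among themselves. The most members stood at 5p, with 204, followed by 13q with 179, 10q with 160 and 16p with 152. The fewest stood at 3p, with 11, 14q with 15 and 4q with 38, and 9p and 18p tied at 45. The median end held 100. This order rests on the length limit: with summits in longer intervals counted, 10q had 217 and 4q had 75. Relative to the rest of its own chromosome, 13q was highest, at 7.66 times, followed by 5p at 6.47 times. The 13p end held 0 lines and the length of the rest kept any assembly gaps, so the rank of 13q was not tested without gaps. The 14q end lies in the immunoglobulin heavy chain locus, whose many gene segments made 134 genes in the table, and none of them was counted as protein-coding.

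**Figure D1:**
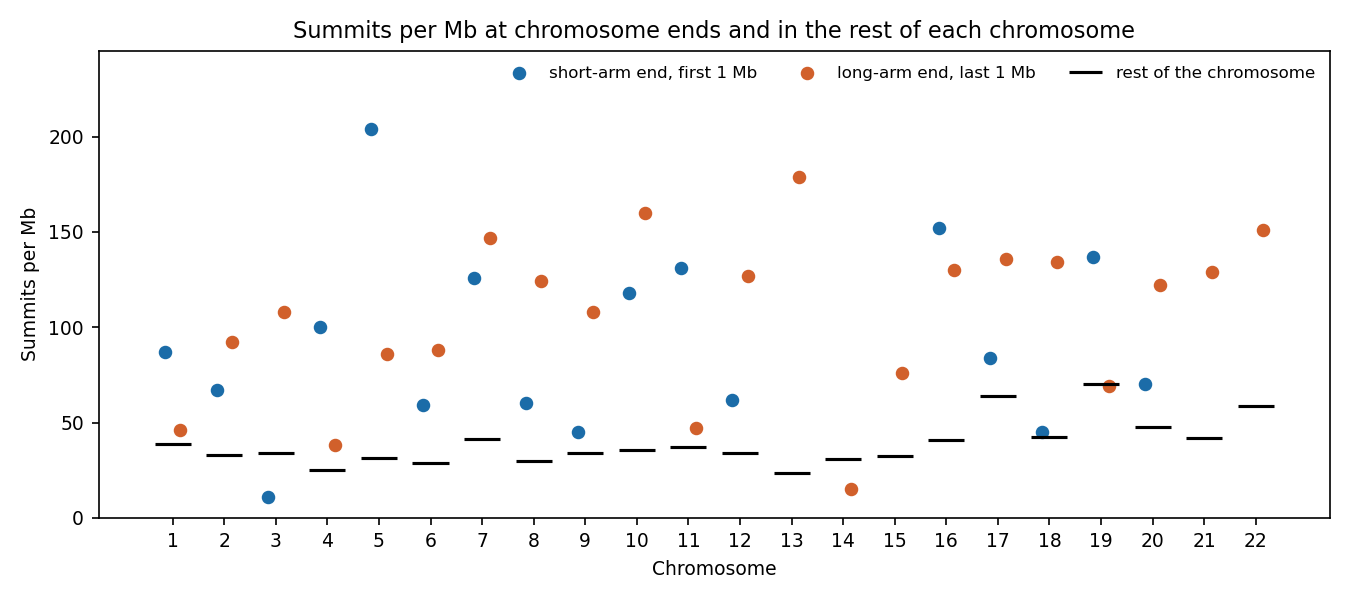
Summits per Mb in the first (blue) or last (orange) 1 Mb of each chromosome, with black bars for the rest of that chromosome; the x axis is the chromosome and the y axis is linear from 0. The points lie above the bar at 36 of 39 ends, from 11 at 3p to 204 at 5p, and the 5 ends without lines are not drawn.

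Long-arm ends held 2312 members and short-arm ends 1558. Over the 17 chromosomes with both ends represented, the means were 103.6 per Mb on the long arm and 91.6 on the short arm, and the long arm was higher on 11 of the 17. The difference of 12 per Mb was 4.94 with a window of 500 kb. The ends of the same chromosome did not rank together (Spearman's rho -0.145 over the 17). Across the 39 ends, member number and the number of protein-coding genes had a rho of 0.54, and member number and median enrichment a rho of -0.60. These correlations are descriptions, since all ends share the same pooled libraries.

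No edge stood at 1 Mb. Density was 99.2 per Mb in the first Mb and 95.6 in the next, then 67.3 at 2 to 3 Mb and 41.7 at 9 to 10 Mb. Protein-coding genes followed the same order, at 16.8, 15.4, 10.3 and 8.72 per Mb. Median enrichment went the other way beyond the first Mb, from 2.33 at 1 to 2 Mb to 4.48 at 14 to 15 Mb. The second Mb was thus nearly as dense as the first, and the density ratio was 1.04 when the rest was limited to it. With intervals of any length counted, the ratio to the whole rest was 1.68.

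**Figure D2:**
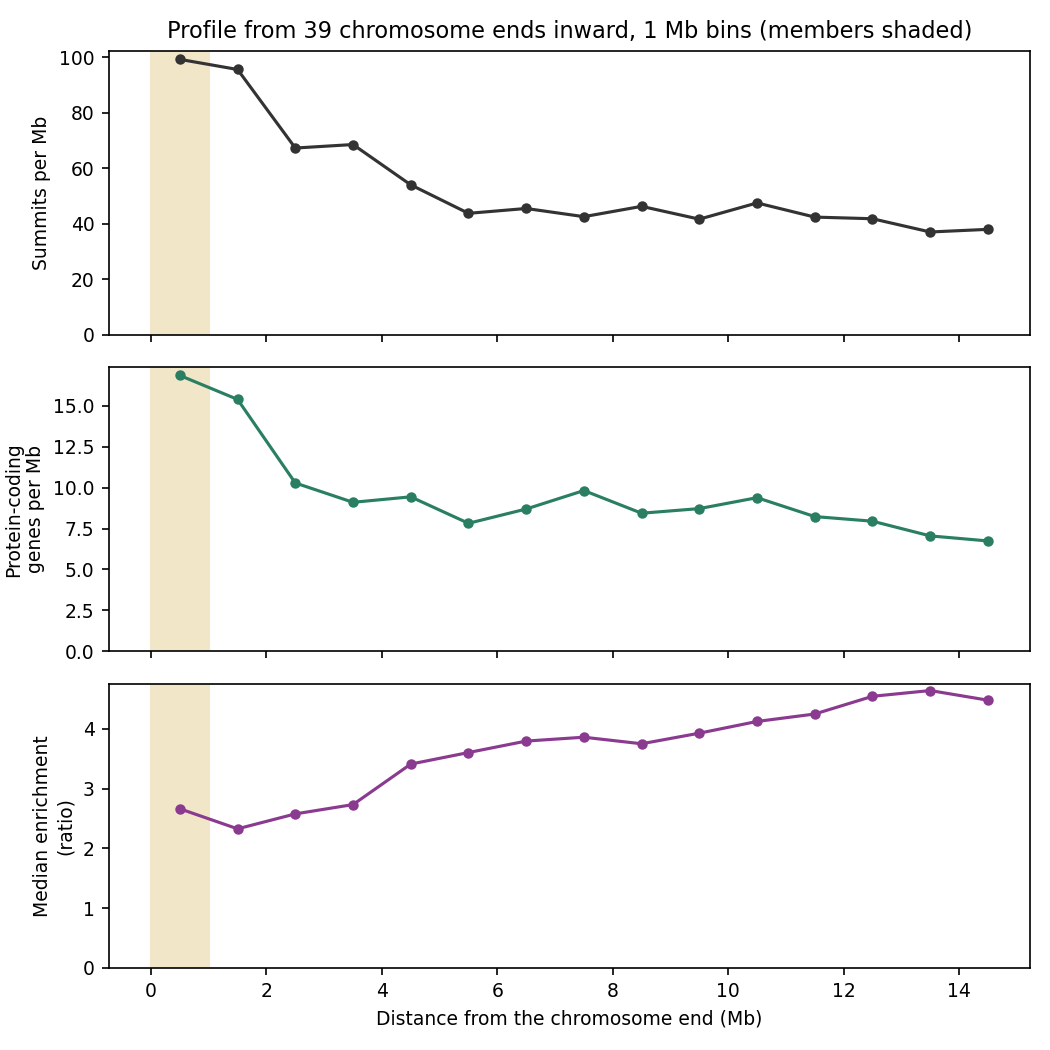
Summits per Mb (top), protein-coding genes per Mb (middle) and median deposited enrichment (bottom) in 1 Mb bins against distance from the chromosome end in Mb, over 39 ends, with the members' bin shaded. Summit density falls from 99.2 to 38.0 per Mb while median enrichment is 2.66 in the shaded bin, 2.33 in the next and 4.48 in the last.

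Within the first Mb the outermost part held fewer summits per Mb of full length, and these were stronger. The first 100 kb held 65.1 summits per Mb, and their median enrichment was 4.01. Their median pileup was 147 fragments, where pileup is the number of overlapping fragments at the summit. At 500 to 600 kb the density was 115.6 per Mb, the median enrichment 2.54 and the median pileup 77. Protein-coding genes were at 6.92 per Mb in the first 100 kb and 18.5 per Mb at 500 to 600 kb. These densities kept assembly gaps in the length, and the part of gaps in the low outermost values was not tested.

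The outermost summit lay at a similar distance from the end of the reference sequence at many ends. At 20 of the 39 ends the outermost summit lay within 12 kb of the chromosome's last base, and at 12 of these within 11 kb. The list began at 10001 bp from an end, and the nearest summit was 10125 bp away, at 15q. Gaps in the reference at the ends were not examined, so this placement is not a measured distance from the telomere. These 20 terminal summits ranged in enrichment from 1.98 to 25.1, around a median of 10.4. Their pileup ranged from 47 to 13871 fragments, around a median of 438. Of the 20, 11 had an enrichment of at least 10, a level reached by 16.2% of all autosomal summits in the comparison. At 15 ends no summit lay within 50 kb, and how much of those 50 kb is sequenced in the reference was not examined.

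The 12q terminal summit (chr12:133264937-133265305) had an enrichment of 25.1 (pileup 2248). The 10p summit (chr10:10010-10427) followed at 21.3, with a pileup of 2119. The 5p summit (chr5:10034-11777) had the highest pileup of the 20, at 13871, over a local background of 787.6, and an enrichment of 17.6. The 3p end, which had the fewest members, had a terminal summit of 17.9 with a pileup of 923. The 22q, 18p, 1q and 1p summits had enrichments of 17.1, 14.8, 14.6 and 11.2. Others were weak, with 1.98 at 9p, 2.25 at 11q and 2.68 at 10q.

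Members of 2 shared families were the nearest genes at 12 of these 20 terminal summits. At 7 of the 20 the nearest gene was an RPL23AP pseudogene, a processed copy of a ribosomal protein gene, and each lay 6 to 9 kb away. These were 1q, 2q, 4q, 10q, 19q, 21q and 22q. At 5 others, 1p, 9p, 12p, 15q and 16p, the nearest was a DDX11L pseudogene, a fragment related to the DDX11 helicase gene. The other 8 had another nearest gene each, such as the noncoding RNA genes LINC02564 at 18p and LINC01986 at 3p. Of the 20 summits, 18 were more than 1000 bp from any gene end.

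**Figure D3:**
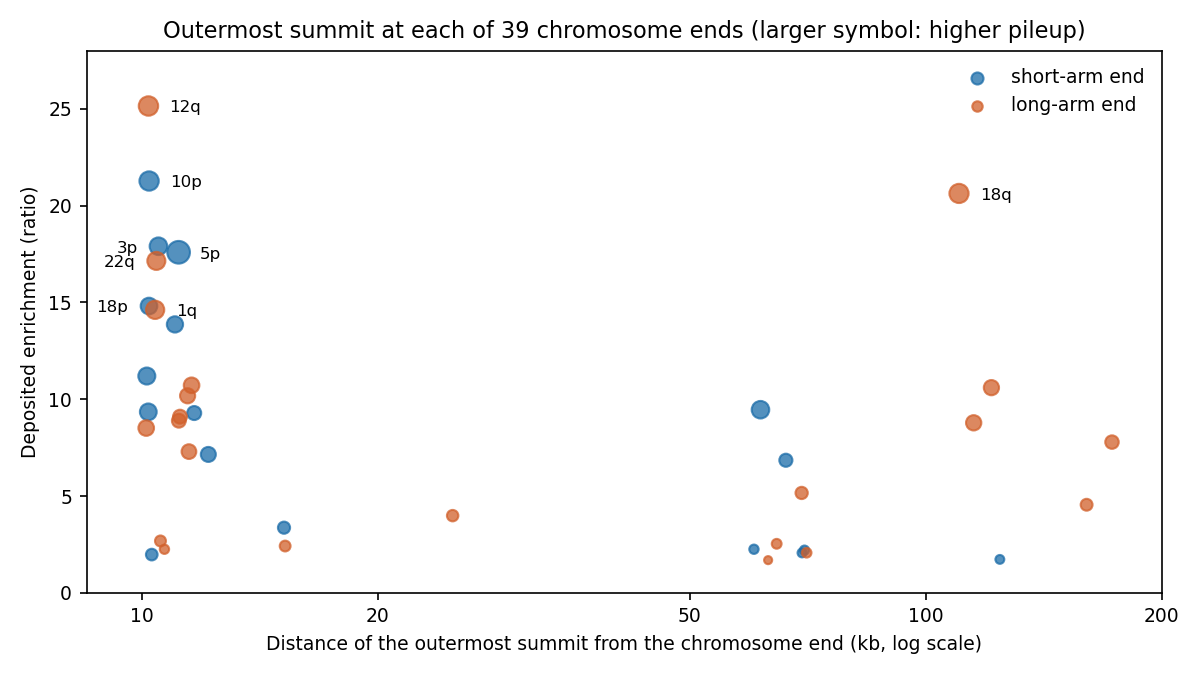
Deposited enrichment (y axis, ratio) of the outermost summit at each of 39 chromosome ends against its distance from the end (x axis, kb, log scale), in blue for short and orange for long arms; symbol size rises with pileup and ends with an enrichment of at least 14 are named. A column of 20 points lies between 10 and 12 kb and spans 1.98 to 25.1.

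WASH copies had a summit at a gene end at most of the chromosome ends that carry them, at differing strength. WASH genes and pseudogenes encode or resemble an activator of actin assembly on endosomes. WASH7P (1p) had an end summit with an enrichment of 12.6 (pileup 664), WASH9P (1p) 11.97 and 757, WASH8P (12p) 11.8 and 752, and WASH3P (15q) 9.98 and 826. WASH5P (19p) had 7.86, and WASH4P (16p) had 2.06. No summit was at the ends of WASHC1 at 9p, but the neighbouring DDX11L5 had 12.4 with a pileup of 649. Because these copies are near-identical, how their fragments were divided was not tested.

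Over the 12 shared families, 24 of 98 genes near the ends had a summit within 1000 bp of a gene end, against 37.6% of all autosomal genes in the table. The share was 24.5% near the ends and 18.1% (23 of 127) in the rest for genes whose symbols begin alike. RPL23AP alone made up 78 of the 127, with a summit at 3, so these pooled shares depend on the mix of families. The direction differed among families. In the rest CICP had 8 of 15 and TUBB8 3 of 8, above their shares near the ends, but SEPTIN14P had 0 of 9 and MIR1302 1 of 7. In the rest the WASH set included WASHC2A, WASHC2C, WASHC3, WASHC4 and WASHC5, each with a summit. The rest set is therefore not made only of copies of the families at the ends. DDX11L had 5 of 6 and WASH 6 of 7. FAM138 had 1 of 5, MIR1302 2 of 6 and MIR6859 2 of 4, although these genes lie beside or within the WASH copies. The MIR1302 genes with a summit, MIR1302-2HG and MIR1302-11, shared it with WASH7P and WASH5P. The same summit can thus count for more than 1 family. OR4F olfactory receptor genes had 1 of 17, at OR4F6, with an enrichment of 9.88. RPL23AP had 2 of 16, CICP 2 of 11, SEPTIN14P 2 of 12 and IL9R 1 of 5. TUBB8 had 0 of 5 and FAM157 0 of 4.

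The internal copy of this block on chromosome 2, at the site where ancestral chromosomes fused head to head, also carried summits. A summit beside DDX11L2 (chr2:113603430-113604408) had an enrichment of 13.8 (pileup 3110). The end of WASH2P (chr2:113583633-113584673) had 7.51 and a pileup of 594, and FAM138B had 3.82 and a pileup of 197. These lie far from the chromosome ends and are not members.

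At 4q and 10q the DUX4 genes fell mostly outside the length limit. DUX4 is a transcription factor gene of early embryos whose repeat array is known from facioscapulohumeral muscular dystrophy. Of 24 DUX4 genes near these ends, 22 stood in intervals over 10 kb and 1 had a member at a gene end, DUX4L9, with an enrichment of 11.4. A member inside the DUX4 gene had a pileup of 8409 and an enrichment of 11.3. FRG1, the neighbouring gene linked to RNA processing, and its divergent transcript FRG1-DT shared a summit of 16.9.

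Zinc finger genes were often accessible near the ends. Of 65 genes whose symbols begin with ZNF, 53 had a summit at an end, 81.5% (interval 70.0 to 90.1%), against 60.9% of 604 in the rest. The share was 37.6% over all autosomal genes and 66.7% over protein-coding ones. All 8 at 12q and all 8 at 8q had one, and 27 of 33 at 19q, but only 2 of 7 at 4p. The median enrichment at those near the ends was 13.5, close to 12.8 in the rest. ZNF10 and ZNF891 at 12q shared a summit of 18.5 with a pileup of 1640, ZNF84 had 17.4, and ZNF8 at 19q had 16.7 with a pileup of 2424. Neighbours often share a summit, so these genes are not independent. Olfactory receptor genes of all groups had a summit at 7 of 65 (10.8%), near the 8.67% (69 of 796) in the rest.

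The protein-coding gene nearest to the telomere had a summit at its ends at 18 of the 39 ends (46.2%), against 66.7% of all autosomal protein-coding genes. At 11 of the 39 the enrichment was at least 10, and the share of all protein-coding genes at that level was not counted. The highest were CHAMP1 (13q, 17.3), PDCD2 (6q, 16.5), the RNA polymerase III subunit gene POLR3K (16p, 16.2), RABL2B (22q, 15.6), ZNF595 (4p, 15.3) and the arginine methyltransferase gene PRMT2 (21q, 15.1). PRDM7 (16q) had 14.2, the phosphatase gene DUSP22 (6p) 12.8, LMLN (3q) 11.8, C8orf33 (8q) 11.8 and IQSEC3 (12p) 11.0. OR4F5 (1p), OR4F3 (5q), OR4F21 (8p), OR4F15 (15q), OR4F17 (19p), TUBB8 (10p), TUBB8B (18p), CHL1 (3p) and DUX4 (4q) had none. At 14q the outermost such gene, TMEM121, lay beyond the 1 Mb line. Over all 657 protein-coding genes near the ends, 457 had a summit at an end (69.6%, interval 65.9 to 73.1%), close to 66.6% of 18316 in the rest.

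Fewer members than summits of the rest stood outside genes, and more stood in gene bodies, while the shares at gene ends were close. Members within 1000 bp of a gene end numbered 844, or 21.8%, against 20.0% of all summits compared, and those at a protein-coding gene end were 13.5%, against 13.4%. Gene bodies held 56.2% of members and 47.0% of the rest. Outside genes stood 21.99% of members, against 33.1% of the rest and 32.6% of all.

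Individual members were weaker than sites elsewhere and stood on a higher local background. The median enrichment was 2.66 (95% interval of the median 2.57 to 2.74), against 3.95 (3.93 to 3.99) in the rest. The median pileup was 84 fragments against 108, and the median local background 30.6 against 24.3. The local background was above the genome-wide value of 20.3 fragments in 84.8% of members and 64.9% of the rest, with 65.6% over all summits. An enrichment of at least 10 was reached by 413 members, 10.7%, against 16.4% of the rest. Median enrichment was below that of the chromosome's own rest at 30 ends and above it at 9. Against summits at 1 to 2 Mb alone, the direction turned, with a median enrichment higher by 0.34 near the ends and a pileup ratio of 1.09. The pileup ratio was also above 1, at 1.12, among summits with −log10 q of at least 10. Only 74.9% of member intervals held a single summit, against 85.9% elsewhere.

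The size of this difference depended on the kind of site. At protein-coding gene ends the median pileup was 522 near the ends and 510.5 in the rest, with overlapping intervals, and the median enrichment 7.60 and 9.14. In gene bodies the median pileup was 72 against 103 and the median enrichment 2.35 against 3.87. Outside genes the pileups were 78 and 79, while a raised background was present at 80.0% against 49.99%.

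**Figure D4:**
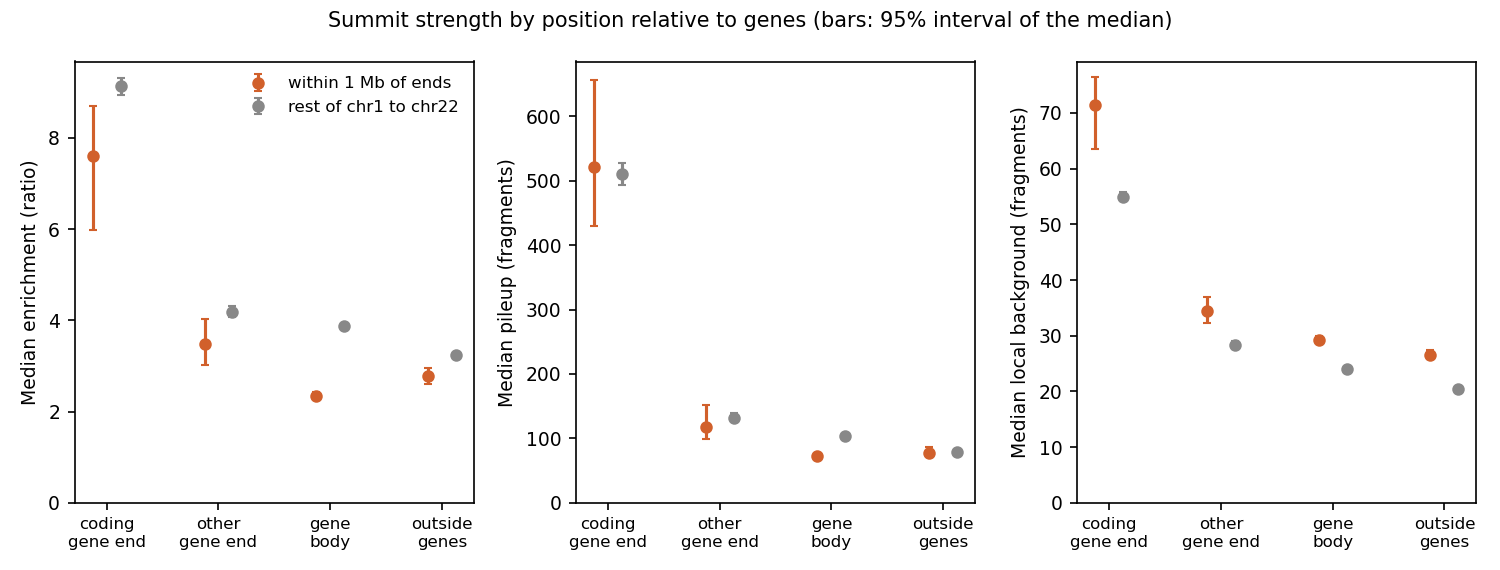
Median enrichment (left), pileup (middle) and local background (right) of summits at protein-coding gene ends, other gene ends, in gene bodies and outside genes, for members (orange) and the rest (grey), with 95% intervals of the median; y axes are linear from 0. Enrichment is lower near the ends in all 4 classes, while pileup at protein-coding gene ends is 522 against 510.5.

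The strongest members were of several kinds. The highest enrichment was 25.4, within the pseudogene ANKRD18DP at 3q, with a pileup of 1190. The gene with an end within 1000 bp of that summit was RNU6-821P. Next came the terminal summits of 12q and 10p and a 21q summit of 21.3, with a pileup of 4516. The 21q summit lay 53 bp from a start site, with starts of SPATC1L and LOC124905045 within 1000 bp. Then came a site 15524 bp from PARD6G at 18q and one within PCSK6 at 15q, both at 20.6. The PCSK6 site lay 115 bp from the start of PCSK6-AS1. A 4q site near LOC124900838 had 19.2, LINC03015 at 7p had 18.9, and DYNC2I1, a dynein subunit gene at 7q, had 18.5.

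The highest pileups were at other places. At 1p, 7 nuclear pseudogenes of mitochondrial genes held 7 summits with pileups of 5175 to 22734, led by MTATP6P1 with 22734 and MTND2P28 with 20659. Their local background was 4857 to 4920 fragments, so their enrichments were only 1.05 to 4.63. Mitochondrial DNA resembles these copies, and its part in the pileups was not tested. The 18p pseudogene ROCK1P1 had pileups of 10831 and 9525. Without the 7 mitochondrial summits the members' median pileup was 83 and their median enrichment 2.66.

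At the 1 Mb line, the members just inside were summits near GALNT9 (12q, 999.996 kb, enrichment 6.03), RNU6-1073P (9p, 5.39) and GRTP1 (13q, 1.99). Summits just outside included those near HES4 (1p, 1000.3 kb, 9.48) and HGH1 (8q, 14.5). At the length limit, the longest member interval was 7673 bp, near HBAP1 at 16p, and the shortest interval left out was 10578 bp, at 1p.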

How the data were processed

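The data were 1 peak list pooled over 12 ATAC-seq libraries. Per the submitters' processing notes, the tools included fastp 0.20.0, Bowtie2 2.4.3, deepTools 3.5.0, SAMtools and MACS2 2.2.7.1, with build hg38. The deposited score, the deposited enrichment ratio (fold over background) and the deposited −log10 p and −log10 q are the authors' values per summit. Pileup and local background were solved from the enrichment and −log10 p under a Poisson model, which no label states. The pileup came out whole, within 0.05, in 99.983% of 176682 autosomal lines, and the recovery was tested on simulated data. Genes came from the RefSeq GRCh38.p14 table. Of its 56756 autosomal rows, 676 whose positions belong to other sequences were left out. Chromosome lengths were those of GRCh38. Promoter rows covered 21 of 22 autosomes, and 6 promoters are printed.

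The members and lists were chosen with earlier results of these data known. Named are the 10 summits highest in enrichment and in pileup, the outermost summit and coding gene of each end, the ends with most and fewest members, the summits at the limits, and the fixed families. The chromosome 2 copies belong to those families. With 1 pooled list, no test between groups was made. Alternatives changed the window, length and gene distance, the q threshold, and the rest used. A summit just outside the 1 Mb line is not reported here.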

Additional observations from a re-analysis of the deposited data

Results flagged for a closer look

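Within 1 Mb of the chromosome ends, 127 further summits stood in 5 intervals over 10 kb and so were not members. At 4q an interval of 27589 bp over DUX4L copies held 37 summits with a median pileup of 1367. At 10q, intervals of 19764 and 20434 bp, also over DUX4L copies, held 29 and 28 summits. The others were an interval of 12801 bp at 15q with 21 summits and one of 10578 bp at 1p with 12. They were singled out as signal outside the sites compared.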

How the results depend on the processing

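Of 57 alternative values, 3 reversed and 34 moved by more than the counting interval of the reported value or, for counts, by more than 1.5 times. The other 20 did not pass these limits. Among them, 24 ends above the rest at 1 to 2 Mb against 36 stood exactly at the limit of 1.5 times. Others were 2754 members and a long-arm excess of 7.76 per Mb, both with each interval counted once. Alternatives on the rest near the ends and on intervals of any length were chosen after seeing the data. With a 500 kb window there were 1747 members, a density ratio of 2.46, a median enrichment difference (members minus rest) of -1.09, a pileup ratio of 0.850, 23.5% at gene ends (rest 19.97%), 82.5% with raised background (rest 65.3%) and a long-arm excess of 4.94 per Mb. With 2 Mb there were 7598 members, a difference of -1.55 and a pileup ratio of 0.734. Counting each interval once gave 2.41, -1.70, 0.740 and 24.1% (rest 20.6%) for density ratio, difference, pileup ratio and gene ends. At −log10 q of at least 10 there were 2070 members, a density ratio of 2.21, a difference of -0.998, a pileup ratio reversed to 1.12, 30.05% at gene ends (rest 23.7%), 89.8% with raised background (rest 73.1%) and a long-arm excess of 4.53. Without chromosome 5 the density ratio was 2.67. With intervals of at most 3 kb the difference was -1.62 and the pileup ratio 0.693. Against the rest at 1 to 2 Mb only, the density ratio was 1.04, the difference reversed to 0.34 and the pileup ratio reversed to 1.09. Against 1 to 10 Mb they were 1.77, -0.43 and 0.933. With intervals of any length they were 1.68, -1.53 and 0.889. The share at gene ends was 13.5% for protein-coding genes (rest 13.4%), 15.5% at 500 bp (rest 15.0%), 36.1% at 2500 bp (rest 29.4%) and 27.3% by any overlap (rest 22.8%). The cause of the reversals was not tested.

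Density without assembly gaps was not run, because no genome sequence was used here. No paired analysis was possible because the list carries no values per library. Depth per library is unknown, so weak sites near the q threshold of the list cannot be weighed by depth.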
